A study of Mus musculus with 2 samples.

Results

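Cholesterol and myelin lipid synthesis genes are described here as read in hippocampus of young mice. The members are 38 genes picked by name: 18 enzymes of cholesterol synthesis, 3 sterol regulators, and 17 enzymes of fatty acid synthesis, desaturation, elongation, activation and of myelin sphingolipids. All 38 were read in both libraries, among 19042 annotated genes with reads in either library. A gene was counted as every read of every transcript model that carries its name.

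The series is long-read RNA sequencing, in which 1 read follows 1 cDNA copy and so keeps the order of its exons. It holds 1 group: hippocampus (the source label says layer of hippocampus) from females of the strain B6CASTF1/J, a first-generation cross between C57BL/6J and CAST/EiJ, aged 14 days, with no treatment named in the labels. The group has 2 libraries, each from total RNA (2 µg) of a pool of 3 animals. The characteristics number different animals for each library, while 1 description line repeats the numbers of replicate 1 in both. With no second condition, the comparisons are among the members and between the libraries, which are pools. P-values rest on the counting error of reads and hold no estimate of the spread between animals or between pools.

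Replicate 1 held 1168366 reads and replicate 2 held 888704, so 1 read was worth 0.856 CPM (counts per 1000000 reads of the library) in replicate 1 and 1.13 CPM in replicate 2. The limit taken for a gene with 0 reads was 3 reads, which is 2.57 CPM in replicate 1 and 3.38 CPM in replicate 2. Since 1 read is 1 copy, levels are not divided by length. Nor are they corrected for recovery of copies that may depend on length. The ratio between the libraries moved with length (Spearman -0.55 over 6456 genes with at least 50 reads), which limits comparisons between genes of unlike length. Markers of hippocampal fields (Prox1, C1ql2, Wfs1, Mpped1, Bok) summed to 531 CPM in replicate 1 and 666 CPM in replicate 2, and all 5 were read in both. The libraries differed within this list. Prox1 had 6.85 CPM in replicate 1 and 38.3 CPM in replicate 2, and Bok had 225 CPM and 190 CPM. In the test between libraries described below, 3 of the 5 (Prox1, C1ql2, Wfs1) were called higher in replicate 2, against 6.25% of all genes. Mpped1 and Bok were not called. Markers of choroid plexus, a tissue within the ventricles beside the hippocampus (Ttr, Folr1, Kl, Aqp1), summed to 4593 CPM in replicate 1 and 6.75 CPM in replicate 2. Nearly all of the sum was Ttr, at 4558 CPM in replicate 1 and 5.63 CPM in replicate 2. The 95% intervals given with levels and shares are two-sided and exact (for shares Clopper-Pearson). They and the limit of 3 reads cover counting error only, since the deposited tables carry no molecular identifiers.

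As background, brain cells make their cholesterol within the brain, because lipoproteins of the blood barely cross into it. Acetyl-CoA is built up to isopentenyl units, joined to squalene, closed to the lanosterol ring and trimmed to cholesterol. SREBP factors, held in the endoplasmic reticulum by Insig proteins when sterol is plentiful, drive these genes and those of fatty acid synthesis. Oligodendrocytes of the young brain draw on the same pathways for myelin, whose membrane is rich in cholesterol, galactosylceramide and sulfatide.

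The members took 4810 reads (0.412%) of replicate 1 and 4477 reads (0.504%) of replicate 2. Their summed level was 4117 CPM in replicate 1 and 5038 CPM in replicate 2, a mean of 4577 ± 651 CPM (SD, n = 2). The median member averaged 72.1 CPM, with a range of 15.0 to 703 CPM. The median of 15151 annotated genes with reads in both libraries was 17.9 CPM, and 36 of the 38 members stood above it, all but Acaca and Elovl7. Hmgcs1, Scd2 and Fads2 together held 34.0% of the members' reads in replicate 1 and 35.3% in replicate 2.

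**Figure D1:**
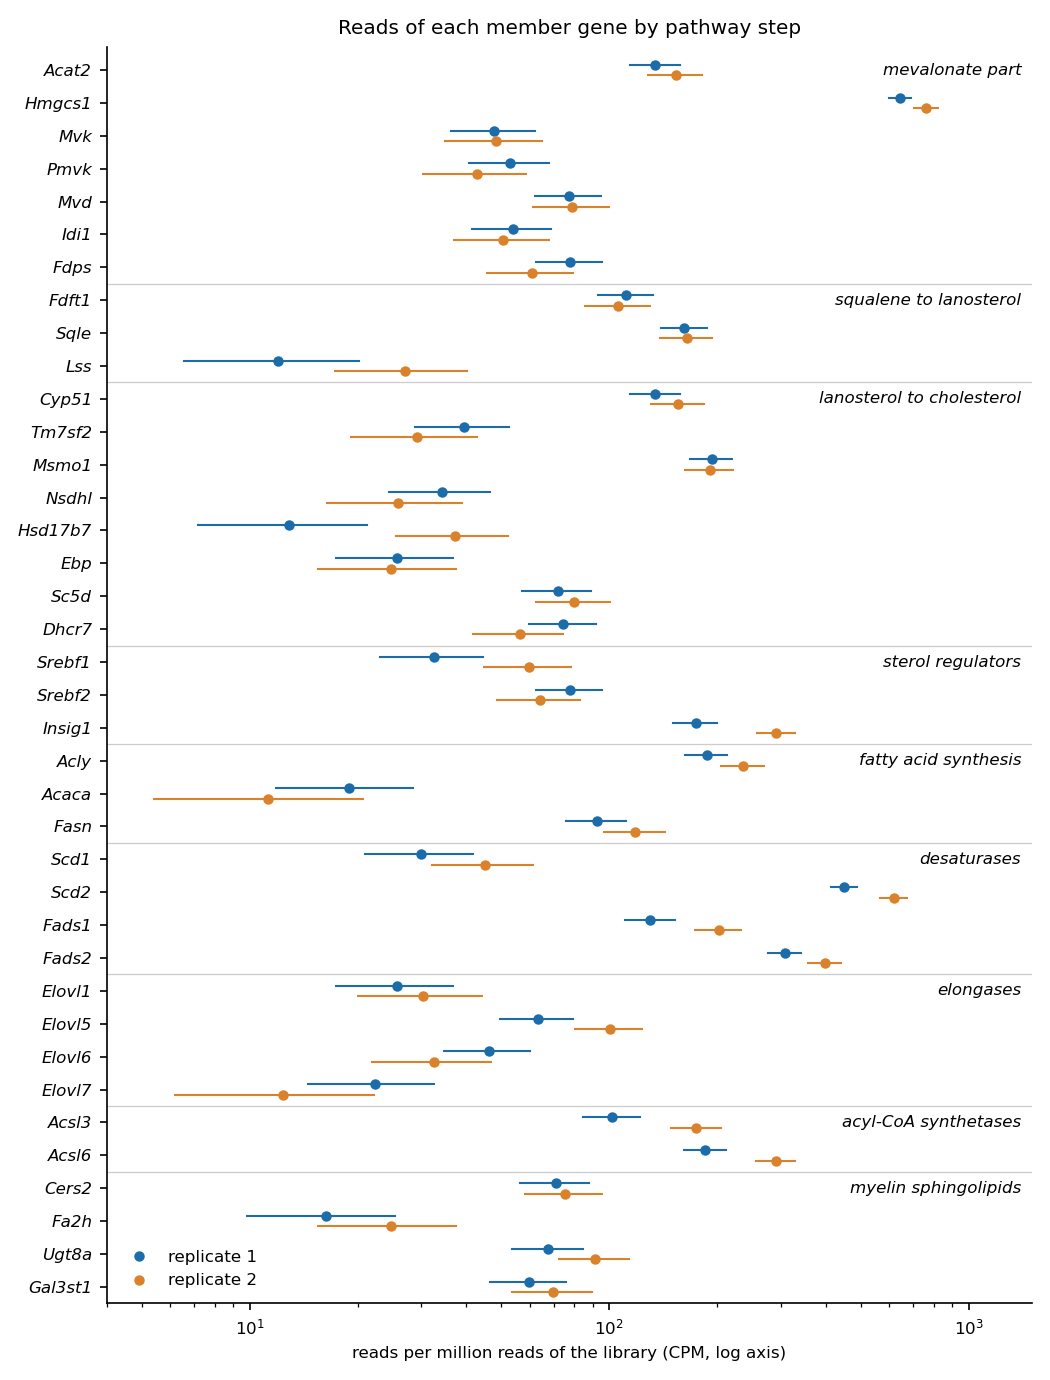
Level of each of the 38 genes in replicate 1 (upper point) and replicate 2 (lower point), in CPM on a log axis, ordered by pathway step; bars are exact 95% counting intervals. Hmgcs1, at 644 CPM in replicate 1 and 763 CPM in replicate 2, and Scd2, at 450 CPM and 619 CPM in the same order, stand at the right, and Acaca, Elovl7 and Lss at the left.

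Among the sterol enzymes the mevalonate step had the most reads. Its 7 members summed to 1088 CPM in replicate 1 and 1197 CPM in replicate 2 (1143 ± 77.4, SD, n = 2), and Hmgcs1, the cytosolic HMG-CoA synthase, made up most of it. Hmgcs1 counted 752 reads in replicate 1 (644 CPM, interval 598 to 691) and 678 in replicate 2 (763 CPM, interval 707 to 823). No other member's interval met that of Hmgcs1 in either library. Acat2, the thiolase that opens the pathway, had 134 CPM in replicate 1 and 153 CPM in replicate 2. The later enzymes of the step lay close together. Mvk, mevalonate kinase, had 47.9 CPM in replicate 1 and 48.4 CPM in replicate 2. Pmvk, phosphomevalonate kinase, had 53.1 CPM in replicate 1 and 42.8 CPM in replicate 2. Mvd, the decarboxylase that follows, had 77.0 CPM in replicate 1 and 78.8 CPM in replicate 2. The intervals of Mvk and Pmvk overlapped in both libraries. Idi1, the isopentenyl isomerase, had 53.9 CPM in replicate 1 and 50.6 CPM in replicate 2, and Fdps, farnesyl diphosphate synthase, had 77.9 CPM and 60.8 CPM in the same order.

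From squalene to lanosterol, 3 members summed to 285 CPM in replicate 1 and 297 CPM in replicate 2 (291 ± 8.52, SD, n = 2). Sqle, squalene epoxidase, led with 162 CPM in replicate 1 and 164 CPM in replicate 2. Fdft1, squalene synthase, had 111 CPM in replicate 1 and 106 CPM in replicate 2. Lss, which closes the ring, was among the least read members, with 14 reads in replicate 1 and 24 in replicate 2 (12.0 CPM and 27.0 CPM).

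The 8 enzymes that turn lanosterol into cholesterol summed to 585 CPM in replicate 1 and 599 CPM in replicate 2 (592 ± 9.33, SD, n = 2). Msmo1, the methylsterol oxidase, had 193 CPM in replicate 1 and 190 CPM in replicate 2. Cyp51, the lanosterol demethylase, had 134 CPM in replicate 1 and 155 CPM in replicate 2. Sc5d, the lathosterol desaturase, had 71.9 CPM in replicate 1 and 79.9 CPM in replicate 2, and Dhcr7, the last reductase of one branch, had 74.5 CPM and 56.3 CPM in the same order. The remaining 4 were lower. Tm7sf2, a sterol reductase, had 39.4 CPM in replicate 1 and 29.3 CPM in replicate 2. Nsdhl, the sterol dehydrogenase that acts beside Msmo1, had 34.2 CPM in replicate 1 and 25.9 CPM in replicate 2. Ebp, the sterol isomerase, had 25.7 CPM in replicate 1 and 24.8 CPM in replicate 2, and Hsd17b7, a keto-reductase, had 12.8 CPM and 37.1 CPM in the same order. Reads under the same-strand neighbour Vps51 lay on Tm7sf2 exons (91 in replicate 1, 108 in replicate 2), so the level of Tm7sf2 depends on how the authors assigned reads there.

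Of the regulators, Insig1, which holds SREBPs back, had 203 reads in replicate 1 and 259 in replicate 2 (174 CPM and 291 CPM). Its paralog Insig2, which is not a member, was read 112 times in replicate 1 and 69 times in replicate 2. Insig1 thus took 64.4% (58.9 to 69.7) of the reads of the pair in replicate 1 and 79.0% (74.1 to 83.2) in replicate 2. Srebf1, the SREBP best known for fatty acid genes, had 32.5 CPM in replicate 1 and 59.6 CPM in replicate 2. Srebf2, the SREBP best known for sterol genes, had 77.9 CPM in replicate 1 and 64.1 CPM in replicate 2. Srebf2 held 70.5% (61.9 to 78.2) of the reads of both SREBP genes in replicate 1 and 51.8% (42.1 to 61.4) in replicate 2, and these intervals do not overlap. Its reads include 14 in replicate 1 and 11 in replicate 2 of Srebf2-205, a retained-intron form. A further 19 and 10 were of 1 exon inside that form, so the share is not one of coding transcripts alone. The sum of the 3 regulators was 284 CPM in replicate 1 and 415 CPM in replicate 2 (350 ± 92.7, SD, n = 2).

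Acly, which makes cytosolic acetyl-CoA from citrate, had 187 CPM in replicate 1 and 235 CPM in replicate 2. Fasn, the fatty acid synthase, had 92.4 CPM in replicate 1 and 118 CPM in replicate 2. Acaca, the acetyl-CoA carboxylase between them in the pathway, had 22 reads in replicate 1 and 10 in replicate 2 (18.8 CPM and 11.3 CPM), the lowest mean of the 38. The 4 desaturases summed to 918 CPM in replicate 1 and 1264 CPM in replicate 2 (1091 ± 245, SD, n = 2). Scd2, the stearoyl-CoA desaturase known as the brain form, had 526 reads in replicate 1 and 550 in replicate 2 (450 CPM and 619 CPM). Scd1, known as the liver and fat form, had 35 reads in replicate 1 and 40 in replicate 2. Scd2 took 93.8% (91.4 to 95.6) of the reads of the pair in replicate 1 and 93.2% (90.9 to 95.1) in replicate 2. Reads under Mir5114 also lay on Scd2 exons, 26 in replicate 1 and 30 in replicate 2. Fads2, which starts the desaturation of polyunsaturated fatty acids, had 307 CPM in replicate 1 and 398 CPM in replicate 2, and Fads1, which acts later in that chain, had 130 CPM and 201 CPM in the same order.

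The 4 elongases were lower, at 157 CPM in replicate 1 and 176 CPM in replicate 2 in sum. Elovl5, which acts on polyunsaturated chains, had 63.3 CPM in replicate 1 and 100.1 CPM in replicate 2. Elovl6, which lengthens palmitate, had 46.2 CPM in replicate 1 and 32.6 CPM in replicate 2. Elovl1, which makes very long saturated chains, had 25.7 CPM in replicate 1 and 30.4 CPM in replicate 2, and Elovl7 had 22.3 CPM and 12.4 CPM in the same order. The acyl-CoA synthetases, which activate fatty acids, were Acsl6, at 185 CPM in replicate 1 and 290.3 CPM in replicate 2, and Acsl3, at 102 CPM and 174 CPM in the same order. In replicate 1 the intervals of Acsl6, Insig1, Acly and Msmo1 overlapped, so their order is not set by these counts.

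The myelin sphingolipid enzymes summed to 215 CPM in replicate 1 and 261 CPM in replicate 2 (238 ± 32.7, SD, n = 2). Cers2, the ceramide synthase of very long chains, had 71.0 CPM in replicate 1 and 75.4 CPM in replicate 2. Ugt8a, which adds galactose to ceramide, had 67.6 CPM in replicate 1 and 91.1 CPM in replicate 2. Gal3st1, which sulfates galactosylceramide to sulfatide, had 59.9 CPM in replicate 1 and 69.8 CPM in replicate 2. Fa2h, which hydroxylates the fatty acid of myelin sphingolipids, had 16.3 CPM in replicate 1 and 24.8 CPM in replicate 2. Mbp and Cnp, the highest of the 8 oligodendrocyte markers, had 3287 CPM and 754 CPM in replicate 1, and 4381 CPM and 1049 CPM in replicate 2.

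Each read was assigned by the authors to a transcript model of 1 of 5 classes: an annotated transcript, an incomplete splice match, a new combination of annotated splice sites, a model with an unannotated site, or genomic. An incomplete splice match holds a run of an annotated intron chain, or is a 1-exon model, as for 101 of the members' reads in replicate 1 and 39 in replicate 2. The genomic models of these genes were also of 1 exon, so such reads stood in both classes. Annotated transcripts took 75.5% (74.2 to 76.7) of the members' reads in replicate 1 and 75.4% (74.1 to 76.7) in replicate 2. Over all annotated genes the shares were 71.8% in replicate 1 and 71.5% in replicate 2. Incomplete splice matches took 13.1% of the members' reads in replicate 1 and 11.9% in replicate 2, against 10.7% and 10.5% over all annotated genes. New combinations took 2.72% in replicate 1 and 3.10% in replicate 2, below the 5.60% and 6.91% of all annotated genes. The difference between the members and all genes was not tested. Of the members' annotated reads, 99.5% in replicate 1 and 99.4% in replicate 2 were on protein-coding transcripts.

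**Figure D2:**
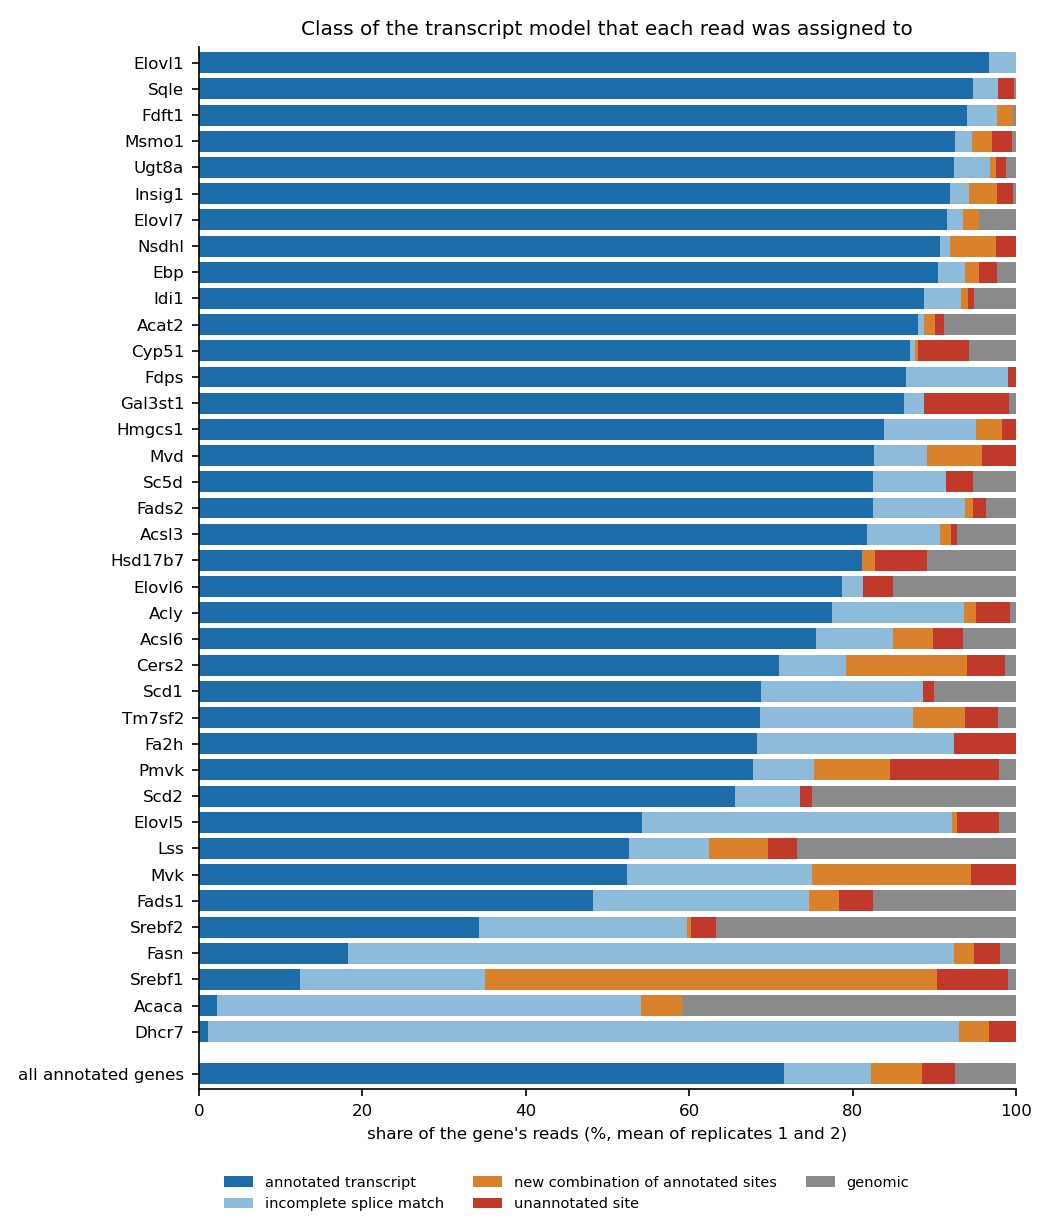
Share of each gene's reads in the 5 model classes, as the mean of replicates 1 and 2 in percent, with all annotated genes as the lowest bar. Most genes sit above the 71.8% and 71.5% of annotated reads over all genes, while Srebf2, Fasn, Srebf1, Acaca and Dhcr7 hold under 50% annotated reads in both libraries.

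The class shares differed widely between members. The median member had 81.5% annotated reads, 18 members had over 80% in both libraries, and 5 had under 50% in both. Sqle and Fdft1 were read almost entirely as 1 annotated form: Sqle-201 held 181 of 189 reads in replicate 1 and 137 of 146 in replicate 2, and Fdft1-201 held 124 of 130 and 87 of 94. The 5 low members were low in different classes. Fasn was mostly incomplete splice matches (74.2% of reads, mean of both libraries), as was Dhcr7 (91.8%). Srebf1 was mostly new combinations (55.4%), and in Srebf2 genomic models were the largest class (36.7%).

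A read counts as full-length here when its model holds the whole intron chain of the gene's leading annotated coding transcript. Of the 37 members with such a chain (Acaca had none), full chains held 66.4% of reads in replicate 1 and 65.3% in replicate 2. Over all annotated genes with a chain the shares were 67.3% in replicate 1 and 66.8% in replicate 2. Models that held the last intron of that chain and lacked the opening one had 21.1% of the members' reads in replicate 1 and 21.6% in replicate 2, and they were of 2 kinds. Those with a run of 3′ introns and nothing else had 10.6% in replicate 1 and 10.5% in replicate 2. Over all genes they had 7.29% and 7.42%. These need not be truncated. Dhcr7 had 71 of them in replicate 1 and 43 in replicate 2, mostly in a model that begins at another annotated start. Those with another intron upstream had 10.5% in replicate 1 and 11.1% in replicate 2, against 5.88% and 6.75% over all genes. Of the second kind, Hmgcs1 had 252 reads in replicate 1 and 257 in replicate 2, Acsl6 had 82 and 69, and Gal3st1 had 31 and 24. Those of Acsl6 mostly used other first exons. Those of Hmgcs1 and Gal3st1 mostly held an added 5′ exon behind the first exon that all their reads with a first exon shared. Models that held the opening intron and lacked the last one had 1.21% in replicate 1 and 1.05% in replicate 2. With full-length taken as every coding intron of any annotated transcript with a complete coding region, the share over the 38 members was 79.6% in replicate 1 and 78.9% in replicate 2.

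Full chains were read in 80% or more of reads in both libraries for 12 members and in under 20% in both for 4. Sqle held its chain of 10 introns in 95.8% (91.8 to 98.2) of reads in replicate 1 and 93.8% (88.6 to 97.1) in replicate 2. Msmo1 did so in 93.3% in replicate 1 and 91.7% in replicate 2, and Insig1 in 91.6% and 92.3% in the same order. The 4 low members were Fasn, Srebf1, Srebf2 and Dhcr7. Across the 37 members the Spearman correlation of transcript length (1194 to 10050 nt) with the full-chain share was -0.26 in replicate 1 and -0.27 in replicate 2, given as a description over genes that share a library. The share depends on the chain chosen. Acly held its chain in 42.7% of reads in replicate 1 and 38.3% in replicate 2, a further 40.4% and 39.2% held both ends with another interior, and 82.1% and 73.7% held a complete set of coding introns. For Scd2 both measures gave 68.3% in replicate 1 and 64.0% in replicate 2.

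Fasn (mm10 chr11:120805846-120824547, minus strand) has the longest of the 37 chains' transcripts, 10050 nt with 42 introns. The whole chain was held by 20 of 108 reads in replicate 1 and 18 of 105 in replicate 2. The loss was stepwise: intron 42, the last, was in 95.4% of reads in replicate 1 and 94.3% in replicate 2. Intron 23 was still in 54.6% in replicate 1 and 53.3% in replicate 2, intron 22 in 39.8% and 35.2%, and intron 1 in 19.4% and 18.1%. The drop between introns 23 and 22 comes with an unannotated 21-exon model that starts at chr11:120814040 and held 16 reads in replicate 1 and 19 in replicate 2. A 7-exon model held 9 reads in replicate 1 and 13 in replicate 2. Acly, by contrast, kept intron 1 in 83.5% of reads in replicate 1 and 78.5% in replicate 2.

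**Figure D3:**
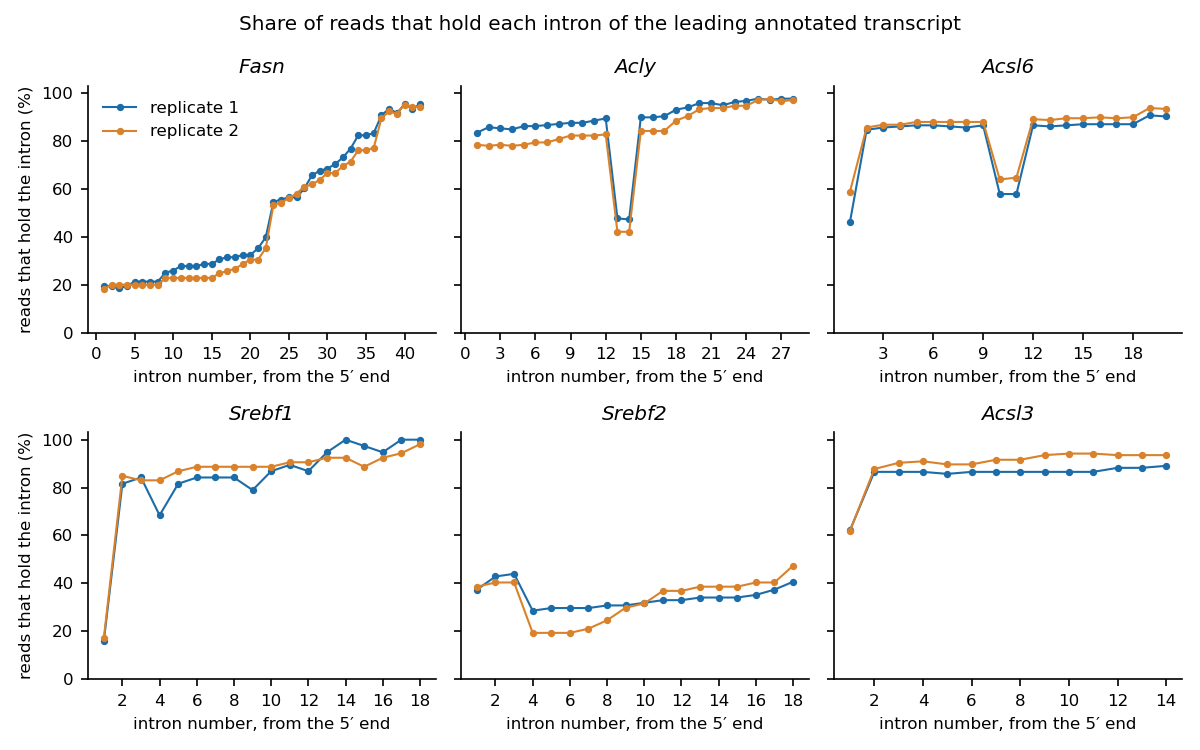
Share of a gene's reads, in percent, that hold each intron of the leading annotated transcript, numbered from the 5′ end, in replicate 1 and replicate 2 for 6 genes. Fasn climbs from 19.4% of reads in replicate 1 and 18.1% in replicate 2 at intron 1 to 95.4% and 94.3% at intron 42; the dips in Acly (introns 13 and 14) and Acsl6 lie at alternative exons.

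Reads of 1 exon made up 8.23% of the members' reads in replicate 1 (396) and 7.59% in replicate 2 (340), and 93.9% of them in replicate 1 and 95.9% in replicate 2 overlapped a last exon. Scd2 held the most. Its 1-exon model chr19:44303231-44306864, inside the last exon, had 123 reads in replicate 1 and 146 in replicate 2, which is 23.4% and 26.5% of its reads. Acaca was read chiefly in this way: 18 of its 22 reads in replicate 1 and 5 of 10 in replicate 2 were of 1 exon, and no full-length level of Acaca can be given. Srebf2 (chr15:82147181-82205379, plus strand) had 38 reads of 1 exon in replicate 1 and 18 in replicate 2, chiefly in 2 places. Its last exon had 17 in replicate 1 and 7 in replicate 2. A further 19 in replicate 1 and 10 in replicate 2 were in models that ended at chr15:82173894, inside the last exon of Srebf2-205, an annotated retained-intron form. Srebf2-205 itself had 14 reads in replicate 1 and 11 in replicate 2, about as many as the coding Srebf2-201, with 15 and 10. The level of the Srebf2 gene therefore counts more reads than its coding transcript does.

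Among 33 members with at least 20 reads in each library, 26 had a single model with 20% or more of their reads and 6 had more than 1. Fasn had none. Those with more than 1 were Acly (Acly-203 and Acly-201), Acsl3 (Acsl3-205 and Acsl3-201), Gal3st1 (Gal3st1-202 and Gal3st1-201), Hmgcs1 (Hmgcs1-201 and Hmgcs1-202), and Scd1 and Scd2, each with its coding form and 1-exon reads. Over all 38 members, 34 were led by an annotated coding transcript. In 29 of these it was the one numbered 201, with 17.8% (Fasn-201) to 94.9% (Sqle-201) of a gene's reads over both libraries, and the other 5 were Acly-203, Acsl3-205, Acsl6-207, Elovl6-205 and Gal3st1-202. The remaining 4 were Acaca and Srebf2, led by 1-exon reads, Dhcr7, led by an incomplete splice match, and Srebf1, led by a new combination.

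The share of the leading transcript differed between replicate 1 and replicate 2 in 0 of 33 members (Fisher's exact test, Benjamini-Hochberg adjusted over 6607 genes), where 1.06% of all genes passed. For the full-chain share it was 0 of 33 against 0.799% of 5880 genes. Only Tm7sf2 had an unadjusted p under 0.05 in either test: its full chain, which is also its leading transcript, held 24 of 46 reads in replicate 1 and 21 of 26 in replicate 2 (exact p = 0.0224; adjusted p = 0.423 for the leading transcript and 0.483 for the full chain).

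Acsl6 (chr11:54303798-54364756, plus strand), a brain-enriched synthetase for polyunsaturated fatty acids, carries a pair of coding exons of equal length of which a transcript holds 1. In mammals the pair is known to encode alternative versions of the enzyme's fatty acid gate domain. Their sequences, from the GENCODE M21 transcripts, are shown because reads divide between them; capitals mark the positions at which they differ. Exon A is mm10 chr11:54336936-54337013 and exon B is chr11:54337071-54337148, both 78 nt.
Acsl6 exon A: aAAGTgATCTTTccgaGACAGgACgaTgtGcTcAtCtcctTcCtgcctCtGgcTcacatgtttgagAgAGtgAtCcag
Acsl6 exon B: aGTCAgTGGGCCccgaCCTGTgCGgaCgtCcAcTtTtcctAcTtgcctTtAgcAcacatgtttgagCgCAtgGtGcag
The exons are identical at 46 of 78 positions (59.0%), so a read of either is told from the other by many bases.

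Exon B was in 125 of 184 informative Acsl6 reads in replicate 1, or 67.9% (60.7 to 74.6), and in 164 of 221 in replicate 2, or 74.2% (67.9 to 79.8). Exon A was in the other 59 reads in replicate 1 and 57 in replicate 2. The libraries' shares overlapped (two-sided Fisher's exact test for this single event, p = 0.186), and both forms were plain in each.

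The exon used went with where the transcript began. Acsl6 reads used 3 first exons, named here by the last base of each: chr11:54303922, chr11:54304333 and chr11:54315207, the most downstream. Among reads from chr11:54315207, exon B was in 92.9% (86.0 to 97.1) in replicate 1 and 87.6% (81.3 to 92.4) in replicate 2. From chr11:54304333 it was in 34.0% (21.5 to 48.3) in replicate 1 and 42.1% (26.3 to 59.2) in replicate 2. From chr11:54303922 it was in 32.0% (14.9 to 53.5) in replicate 1 and 31.6% (12.6 to 56.6) in replicate 2. In each library the interval of the downstream start lay above those of both upstream starts, which overlapped each other. The link was looked at after the shares had been seen and is a description with no test. The downstream start was in 56.0% (48.5 to 63.4) of Acsl6 reads with a first exon in replicate 1 and 72.8% (66.4 to 78.6) in replicate 2. These intervals do not overlap, and the difference was not tested. The leading form Acsl6-207, which begins there and holds exon B, had 88 reads in replicate 1 and 125 in replicate 2. Acsl6-210 had 31 in replicate 1 and 21 in replicate 2, Acsl6-209 had 17 and 16, Acsl6-204 had 16 and 12, and Acsl6-203 had 7 and 17.

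**Figure D4:**
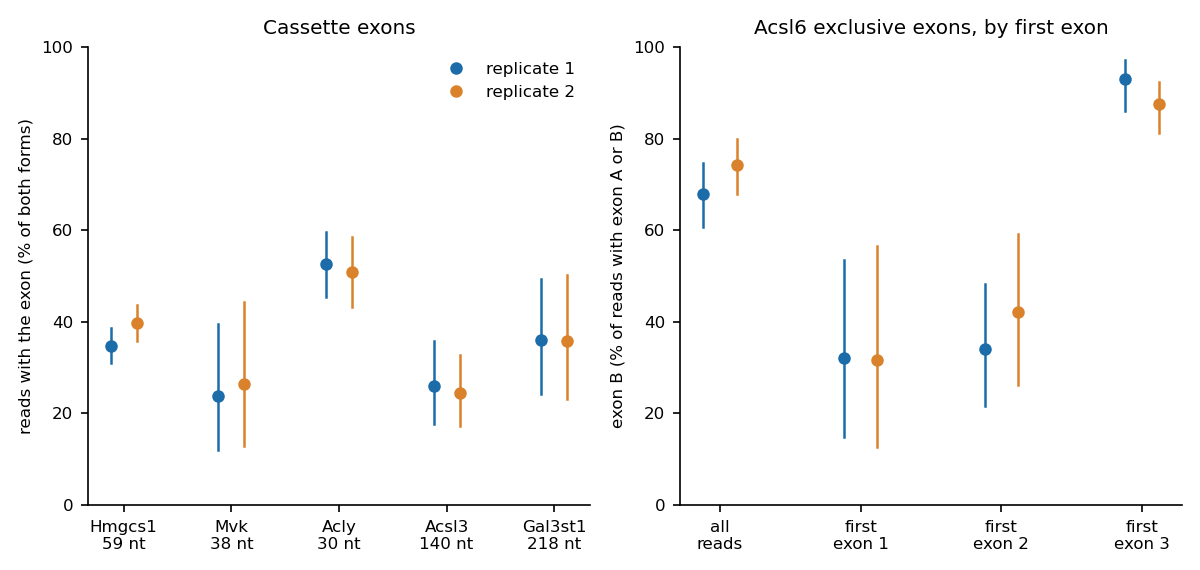
Left, share of reads with each cassette exon among reads with or without it; right, share of Acsl6 reads with exon B among reads with exon A or B, for all reads and by first exon, numbered 1 to 3 from upstream (ends chr11:54303922, 54304333 and 54315207). Points are replicate 1 and replicate 2 with exact 95% intervals; exon B is at 92.9% in replicate 1 and 87.6% in replicate 2 from the most downstream first exon.

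An internal exon that annotated transcripts of the gene either hold or skip is called a cassette exon. Of 26 such events with at least 20 informative reads in each library, 5 lay between 20% and 80% inclusion in both libraries, and the rest were nearly always in or nearly always out. In Acly it was a 30-nt coding exon, mm10 chr11:100503160-100503189 on the minus strand, which separates Acly-203 from Acly-201.
Acly cassette exon: attcagtcccaagtccaagatccctgcaag
Reads with it numbered 103 and reads without it 93 in replicate 1, an inclusion of 52.6% (45.3 to 59.7). In replicate 2 they numbered 87 and 84, an inclusion of 50.9% (43.1 to 58.6). Its length is a multiple of 3, so the reading frame is kept either way.

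The other 4 lie outside the coding sequence, in 5′ untranslated parts. The Hmgcs1 exon chr13:119694989-119695047 (59 nt) was in 34.7% (31.0 to 38.6) of reads in replicate 1 and 39.7% (35.7 to 43.8) in replicate 2, and it separates Hmgcs1-202 from the leading Hmgcs1-201. A longer form of that exon, 158 nt, was in 4.23% in replicate 1 and 1.92% in replicate 2. The Gal3st1 exon chr11:3984941-3985158 (218 nt) was in 36.1% (24.2 to 49.4) in replicate 1 and 35.8% (23.1 to 50.2) in replicate 2. The Acsl3 exon chr1:78663141-78663280 (140 nt) was in 26.0% (17.7 to 35.7) in replicate 1 and 24.4% (17.2 to 32.8) in replicate 2. The Mvk exon chr5:114444652-114444689 (38 nt) was in 23.8% (12.1 to 39.5) in replicate 1 and 26.5% (12.9 to 44.4) in replicate 2. In all 5 events the libraries' intervals overlapped. In Gal3st1 and Hmgcs1 the 5′ exon choice therefore left the coding part whole: every coding intron was held by 100% of Gal3st1 reads in replicate 1 and 95.2% in replicate 2, and by 88.4% of Hmgcs1 reads in replicate 1 and 91.6% in replicate 2.

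Unannotated spliced models of the members numbered 334 in replicate 1 and 327 in replicate 2, with 784 and 761 reads. Intron chains read in both libraries were 141, which is 42.2% of the models of replicate 1 and 43.1% of those of replicate 2. They held 70.3% of such reads in replicate 1 and 70.7% in replicate 2. Of the 10 with the most reads, 8 were incomplete splice matches and 2 were new combinations. Hmgcs1 had 3 of them, a 9-exon model with 25 reads in replicate 1 and 20 in replicate 2, an 11-exon new combination with 17 and 7, and a 3-exon model with 11 and 12. Scd2 had a 5-exon model with 19 reads in replicate 1 and 14 in replicate 2 and a 2-exon model with 11 and 20, and Fads1 had an 8-exon model with 15 and 27.

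Dhcr7 led them. An 8-exon model, chr7:143830234-143848409 on the plus strand, held 61 of its 87 reads in replicate 1 and 41 of 50 in replicate 2, or 70.1% (59.4 to 79.5) and 82.0% (68.6 to 91.4). Its intron chain lies within that of annotated transcripts that begin further upstream. Its 5′ end coincides with the annotated start of another Dhcr7 transcript and lies 20 nt from a RefSeq start. Only 2 reads in replicate 1 and 0 in replicate 2 held the longer annotated chain, but 75.9% in replicate 1 and 84.0% in replicate 2 held every coding intron.

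Srebf1 (chr11:60199089-60222581, minus strand) was the other case. Its leading model, a 19-exon new combination that starts at chr11:60210392, held 16 of 38 reads in replicate 1 and 25 of 53 in replicate 2 (42.1% and 47.2%). It joins a downstream first exon, chr11:60210336-60210392, to the remaining exons through the annotated 3′ end. In GENCODE M21 that first exon appears only in Srebf1-207 and Srebf1-208, which end early. Srebf1-201, the annotated full-length form with the upstream first exon, had 3 reads in replicate 1 and 8 in replicate 2. Of reads that reached either first exon, 21 of 27 in replicate 1 and 30 of 39 in replicate 2 used the downstream one (77.8% and 76.9%). As background, the upstream exon gives SREBP-1a and the downstream one SREBP-1c, which has a shorter activation domain.

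The window before that downstream start is printed because most Srebf1 reads began at its exon. It is GRCm38.p6 chr11:60210472-60210621, minus strand, the 150 bases before a RefSeq start. That RefSeq start lies 79 nt upstream of the start of the leading model. Capitals mark GGGCGG (GC box letters) and the CCAAT letters, here as their reverse complement.
Srebf1 downstream window: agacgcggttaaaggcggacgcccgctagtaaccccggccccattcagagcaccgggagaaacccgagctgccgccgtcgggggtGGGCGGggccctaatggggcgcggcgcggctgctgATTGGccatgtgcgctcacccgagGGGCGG
The same is printed for Hmgcs1, the most read member, GRCm38.p6 chr13:119690201-119690350, plus strand, with the letters of a sterol regulatory element in capitals as well and CCGCCC as the reverse complement of GGGCGG. The RefSeq start there lies 95 nt upstream of the start of Hmgcs1-201.
Hmgcs1 window: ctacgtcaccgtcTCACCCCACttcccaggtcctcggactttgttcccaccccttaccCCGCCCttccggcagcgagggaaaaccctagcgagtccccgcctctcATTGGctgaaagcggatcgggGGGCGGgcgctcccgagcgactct
RefSeq start windows, 42 in all, were matched for 31 members, and both strands of the 250 bases before each start were searched. The sterol element TCACNCCAC was in 1 of the 42, that of Hmgcs1, and in 1.05% of all 32851 windows. CCAAT was in 27 of the 42 and in 33.8% of all windows, and GGGCGG was in 30 of the 42 and in 32.7% of all. The 7 members without a window (Fdps, Fdft1, Sqle, Scd1, Scd2, Fads1 and Fa2h) were not searched. Several members have more than 1 window, and a match of letters is not a binding site. Only these exact letters were sought, so an element that departs from them would be missed.

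Between the libraries, 10 of the 38 members differed in reads, each of them lower in replicate 1 and higher in replicate 2 (exact binomial test, two-sided, with Benjamini-Hochberg adjustment over 11681 genes and a threshold of 0.05). Of all genes tested 11.5% were called, 5.24% as higher in replicate 1 and 6.25% as higher in replicate 2. Of the members 26.3% were called. Members are read more than most genes, which gives the test more power for them. Among genes of at least 50 reads, 9 of 33 members and 1426 of 6456 genes were called. The test takes reads as its unit, so it compares these pools. A lower level can mean fewer cells of a type or less of the RNA per cell, which bulk tissue cannot tell apart. Log2 ratios are replicate 1 over replicate 2 of CPM + 1, which understates changes of low genes.

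The called members came from 6 of the 9 steps, and none belonged to the squalene-to-lanosterol, fatty acid synthesis or myelin sphingolipid steps. Among sterol enzymes Hmgcs1 had a log2 ratio of -0.24 (exact test, adjusted p = 0.0168), and Hsd17b7, with 15 reads in replicate 1 and 33 in replicate 2, had -1.46 (exact test, adjusted p = 0.00633). Of the regulators Insig1 had -0.74 (exact test, adjusted p = 1.87e-06) and Srebf1 had -0.86 (exact test, adjusted p = 0.0395). Among desaturases Scd2 had -0.46 (exact test, adjusted p = 9.3e-06), Fads1 -0.63 (adjusted p = 0.00164) and Fads2 -0.37 (adjusted p = 0.00845). Elovl5 had -0.65 (exact test, adjusted p = 0.0401). Both synthetases were called, Acsl3 at -0.77 (exact test, adjusted p = 0.000299) and Acsl6 at -0.65 (adjusted p = 4.14e-05). At an unadjusted p under 0.05 there were 12, with Acly and Lss added. The median log2 ratio was -0.20 over the members and -0.11 over all genes tested.

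The ratio moved with transcript length. Across 6456 genes with at least 50 reads, the Spearman correlation of the log2 ratio with read-weighted model length was -0.55, and across the 33 members with that many it was -0.60, both as descriptions. Once the trend with length was removed, 1 of the 38 members stayed called, Insig1 (log2 ratio -0.50; exact test, adjusted p = 0.0117), against 2.78% of all genes. Acsl3 kept a log2 ratio of -0.50 and Hsd17b7 one of -1.14 in that fit without passing the test (exact test, adjusted p = 0.108 and 0.158). With TMM or DESeq2 scaling, which moved the median log2 ratio of all genes to 0.00, 6 members were called, against 10.1% of all genes with TMM and 10.2% with DESeq2. They were again all lower in replicate 1: Acsl3, Acsl6, Fads1, Hsd17b7, Insig1 and Scd2. Those scalings also moved the share of all calls that were higher in replicate 1 to 68.2% with TMM and 67.6% with DESeq2, against 45.6% with library totals. Markers moved with the libraries as well. Their calls use library totals with the length trend left in, where 6.25% of all genes were called higher in replicate 2. Marker calls under the other scalings or with the trend removed are not given. The 8 oligodendrocyte markers summed to 4842 CPM in replicate 1 and 6500 CPM in replicate 2, with 3 of 7 tested called higher in replicate 2, including Mbp and Cnp. Mag, at 101 CPM in replicate 1 and 96.8 CPM in replicate 2, and Cldn11, at 15.4 CPM and 13.5 CPM, were not called. The 6 astrocyte markers summed to 2995 CPM in replicate 1 and 4766 CPM in replicate 2, with 5 of 6 called higher in replicate 2 (Aldoc 1233 CPM and 1913 CPM, Gja1 623 CPM and 1019 CPM). Neuron markers summed to 4382 CPM in replicate 1 and 5319 CPM in replicate 2, with 5 of 6 called higher in replicate 2. No marker of these lists was at 0 in both libraries. The part of cell content and of choroid plexus RNA in the members' ratios was not tested.

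**Figure D5:**
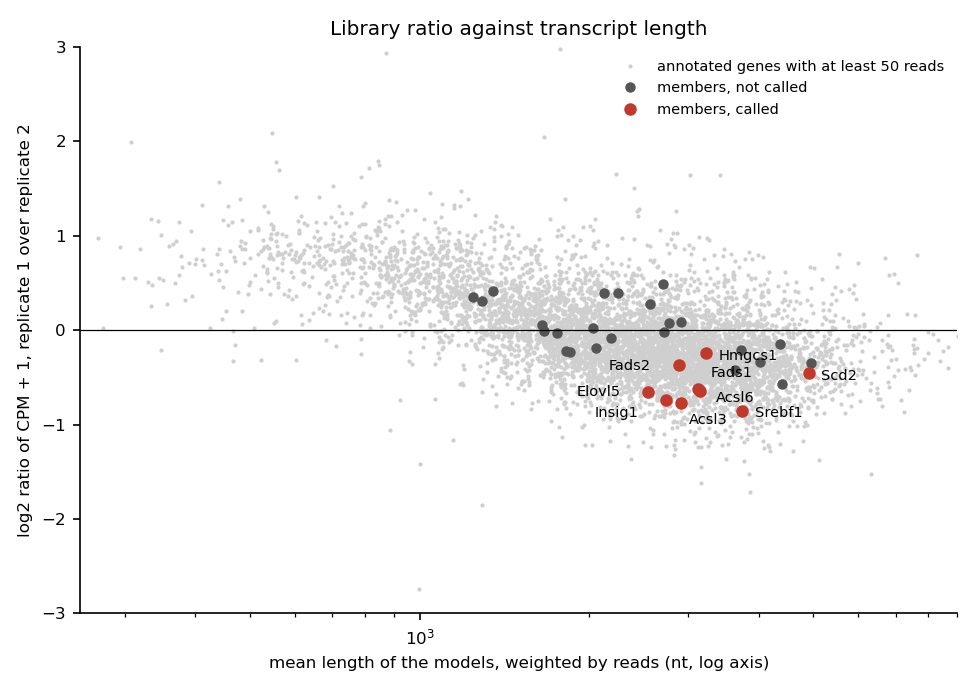
Log2 ratio of CPM + 1, replicate 1 over replicate 2, against read-weighted model length on a log axis, for annotated genes with at least 50 reads (grey) and 33 members (dark: not called; red: called and named); 41 genes lie outside the axes. Longer genes have lower ratios (Spearman -0.55 over all genes), and the 9 called members shown lie below 0.

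Other genes of these pathways, from lists written beside the members, give the setting. Their calls use library totals with the length trend left in, where 11.5% of all genes were called. Of 7 further sterol synthesis genes, 5 were tested and 0 were called in either direction by the exact binomial test. Acat1, a mitochondrial thiolase, had 153 CPM in replicate 1 and 165 CPM in replicate 2, and Ggps1, which makes geranylgeranyl diphosphate, had 35.1 CPM and 36.0 CPM in the same order. Of 15 sterol sensing and transport genes, 14 were tested and 2 were called, both higher in replicate 2. Cyp46a1, the neuronal cholesterol hydroxylase, was among them, at 222 CPM in replicate 1 and 295 CPM in replicate 2. Of 26 further fatty acid genes, 20 were tested, 3 were called higher in replicate 1 and 1 higher in replicate 2. Tecr, an enoyl reductase of elongation, had 686 CPM in replicate 1 and 506 CPM in replicate 2. The fatty acid binding proteins Fabp7 and Fabp5 had 277 CPM and 112 CPM in replicate 1, and 138 CPM and 60.8 CPM in replicate 2. Mid1ip1, a partner of acetyl-CoA carboxylase, was higher in replicate 2, with 141 CPM in replicate 1 and 216 CPM in replicate 2. Of 20 further sphingolipid genes, 17 were tested and 1 was called, Cers1, the ceramide synthase of neurons, at 282 CPM in replicate 1 and 358 CPM in replicate 2. Cers1 took 79.9% (75.7 to 83.7) of the reads of Cers1 and Cers2 together in replicate 1 and 82.6% (78.4 to 86.3) in replicate 2. Elovl3, Scd3, Scd4, Sptlc3, Cers3 and Idi2 had 0 reads in both libraries, below the limit of 2.57 CPM in replicate 1 and 3.38 CPM in replicate 2.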

How the data were processed

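For each library the authors deposited 1 table of whole-number counts of reads assigned to each transcript model, without scaling, per the file headers. Models are those of GENCODE M21 on mm10 plus, per the file headers, models that TALON added from the reads of that library. The sources used here do not give the aligner, its version or the read filters. Models with 1 read are listed, 54.6% of the members' models in replicate 1 and 56.8% in replicate 2, so no minimum was applied to them.

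CPM were computed from the deposited counts over all reads of a table. Unannotated models were matched between libraries by intron chain. Full chains, cassettes and exclusive exons were read from the exon coordinates of the deposited models. A two-sided exact binomial test compared the libraries for each gene of 10 or more reads in sum. Fisher's exact test compared transcript shares for each gene of 20 or more reads per library. Both used Benjamini-Hochberg adjustment over all genes and a threshold of 0.05. A comparison of 1 library with 1 other leaves no residual degrees of freedom, so edgeR 4.0.16 (TMM) and DESeq2 1.42.0 (R 4.3.3) gave scaling factors only. The rest used Python 3.11.15 with scipy 1.17.1, numpy 2.4.6, statsmodels 0.14.6, pandas 2.3.3 and matplotlib 3.10.9. The tests were tested on simulated data. The simulated reads held counting error only, with no spread between pools and no length trend, so the library calls were not checked against either.

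Named are all 38 members, their leading transcripts, models with at least 20% of a gene's reads, the 10 most read unannotated models shared by both libraries, and, of the other lists, the 4 highest genes and those called. Some genes of those lists that the rule would name are not reported here. The shares within gene pairs, the Acsl6 link to first exons, the cassettes described, the genes with 0 reads and Insig2, Scd1 and Cers1 as partners were chosen after values were seen. The members and lists were chosen with earlier results of these data known. Exon sequences come from GENCODE M21 transcripts and start windows from RefSeq (GRCm38.p6).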

Additional observations from a re-analysis of the deposited data

Results flagged for a closer look

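Reads on the strand opposite a member, in models under other names, stood above the limit of 3 reads in both libraries at 5 members. At Fdft1 they numbered 677 in replicate 1 and 606 in replicate 2, of which 667 and 606 were under Ctsb, against 130 and 94 reads of Fdft1 itself. At Cers2 they numbered 31 in replicate 1 and 30 in replicate 2, of which 28 and 29 were under Setdb1. At Srebf1 they numbered 21 in replicate 1 and 24 in replicate 2, all under Rai1. At Elovl1 they numbered 13 in replicate 1 and 10 in replicate 2, of which 9 and 4 were in an unannotated locus and 4 and 6 under Cdc20. At Acsl3 they numbered 9 in replicate 1 and 6 in replicate 2, all in an unannotated locus. None of these reads entered the members' levels, and whether strand was assigned correctly was not tested.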

How the results depend on the processing

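Of the settings tried on the count of called members (10 of 38), TMM scaling and DESeq2 size factors each gave 6. Annotated transcripts only gave 6 of 36 members tested, against 12% of 8836 genes. A minimum of 1 read gave 8 of 38, against 1155 of 19042 genes. A minimum of 50 reads gave 9 of 33, against 1426 of 6456 genes. Removal of the length trend gave 1 of 38. Removal of the length trend also left 325 genes called over all genes tested, against 1342, and it turned Hmgcs1 to a log2 ratio of 0.065 (exact binomial test, adjusted p = 0.863). Over 7 alternatives, the adjusted p of Insig1 ranged from 1.06e-06 to 0.0117, and that of Hmgcs1 from 0.00152 to 0.863. Elovl5 stayed called in 2 of the 7 and Srebf1 in 1. A doubled tail in place of the summed exact p called 1266 of 11681 genes and 9 of 38 members, without Srebf1. That alternative was chosen after seeing the data.

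Annotated transcripts only gave a summed level of 3453 CPM against 4577 CPM, 5 leading-share calls over all genes against 70, and an Acsl6 exon B share of 70.4%. With one library left out, the summed level ranged from 4117 to 5038 CPM, the exon B share from 67.9% to 74.2% and the annotated share from 75.4% to 75.5%. Full-chain calls over all genes were 47, or 31 with the reference of most introns and 18 with spliced models only. The full-chain share of member reads, 65.8% as the mean of both libraries, became 52.6% with that reference, 71.3% with spliced models only, and 79.3% with the coding definition, which was chosen after seeing the data. The annotated share, 75.4%, became 14.3% when models were counted in place of reads and 79.3% with models of at least 2 reads.

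Low members limit the rest, at 10 to 33 reads per library. Their intervals overlap in every pair of Lss, Fa2h, Hsd17b7, Acaca, Ebp, Elovl1 and Elovl7, except that Hsd17b7 stood above Acaca and Elovl7 in replicate 2. No paired analysis was possible because the series has 1 group.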
